A study of Mus musculus with 9 samples.

Results

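The BCL2 family decides whether a cell keeps its mitochondria sealed or lets them release cytochrome c and start the caspases. Anti-apoptotic members (here Bcl2, Bcl2l1 and Mcl1) hold the pore-forming effectors Bax and Bak1 in check, and the BH3-only members (here Bcl2l11, Bid, Bad, Bbc3 and Pmaip1) release or activate the effectors through a short helix, the BH3 region, that fits a groove on the anti-apoptotic proteins. In CD8+ T cells, Mcl1 and Bcl2 are known for survival downstream of IL-7 and IL-15, and Bcl2l11 for the loss of activated cells when cytokine and antigen are withdrawn. These 10 genes were chosen by name as the core of the family, and all 10 were identified by their Ensembl identifiers among the 32976 genes of the count tables.

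The libraries came from CT26, a mouse colorectal carcinoma line grown under the skin of wildtype mice that received PD-1 antibodies (clone RMP1-14) on days 3, 6 and 9. T lymphocytes recognising the tumor epitope GSW11 were sorted from the tumors with a tetramer. Bright staining was read as high avidity and dim staining as low avidity. The study also measured avidity by tetramer competition in cells from tumor-draining lymph nodes and by tetramer dissociation. It further compared CD8+ T cells of regressors and progressors by acoustic force spectroscopy. The groups were TetHighProg (high avidity, progressing tumors, replicates 1, 2 and 5), TetLowReg (low avidity, regressing tumors, replicates 6, 7 and 8) and TetLowProg (low avidity, progressing tumors, replicates 9, 10 and 12). All 3 groups were treated, so no library served as an untreated control, and no high avidity library came from a regressing tumor. The study describes 3 regressing and 3 progressing tumors, so TetHighProg and TetLowProg may share tumors, but no label pairs them, and p-values measure only the spread between these libraries.

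Gene counts summed to 16405306 in the shallowest library and 36429515 in the deepest, yet the number of genes found, meaning with 10 counts or more, ran from 599 to 8071. It was below 2000 in 4 libraries, called the sparse libraries here: replicates 1 and 2 of TetHighProg, replicate 6 of TetLowReg and replicate 10 of TetLowProg. The labelled CD8 T cell identity was met in part: every library held Cd8a or Cd8b1 at 10 counts or more, but Cd8a had 0 counts in 3 of the sparse libraries, and Cd44, a marker of the sorted cells, had 0 in all 4. Markers of other cells were present in some libraries. The summed level of the B cell list (Ms4a1, Cd79a, Cd79b) was 558 and 681 CPM (a gene's counts per 1000000 gene counts of the library) for replicates 7 and 8 of TetLowReg and 1108 CPM for replicate 12 of TetLowProg. It was at most 0.0395 CPM in the other 6 libraries. The macrophage and dendritic cell list of 11 genes summed to 8425, 1268 and 621 CPM in those 3 libraries. It summed to 1543 and 435 CPM for replicates 1 and 5 of TetHighProg, and to at most 16.2 CPM elsewhere. Of the 11 genes, 5 were found in TetLowReg replicate 7 and 4 in TetLowReg replicate 8. Summed levels reached 58.8 CPM for CD4 T cells and Tregs, 147 CPM for neutrophils and 69.6 CPM for erythroid cells. They reached 372 CPM for CT26 tumor and stroma, beside 1053 to 7851 CPM for the 10 T cell genes. The lowest T cell sum, 1053 CPM, was in TetLowReg replicate 7, as was the lowest sum of Cd8a and Cd8b1, 101 CPM. The same library had the macrophage and dendritic cell sum of 8425 CPM. It held 98.2% of the TetLowReg counts of Bcl2l1, 92.4% of those of Bax and 100% of those of Bbc3. The part of other cells in the values below was not tested, and marker levels given beside them are descriptions. In bulk RNA, fewer cells that express a gene and less RNA per cell cannot be told apart.

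The BH3 region is what the members share in sequence, and the coding bases for it are shown for the members on which the results turn. Each line holds 42 bases, 5′ to 3′ on the coding strand, read from the GENCODE M39 transcripts of build GRCm39, with the 18-base core in capitals (leucine, 3 codons of any kind, glycine, alanine or serine, and aspartate).
Bcl2: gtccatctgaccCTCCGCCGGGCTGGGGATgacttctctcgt
Mcl1: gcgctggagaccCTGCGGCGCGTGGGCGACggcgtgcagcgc
Bax: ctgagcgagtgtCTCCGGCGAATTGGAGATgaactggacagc
Bcl2l11: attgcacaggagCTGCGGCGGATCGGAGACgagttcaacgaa
Bid: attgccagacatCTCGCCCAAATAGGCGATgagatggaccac
The printed stretch of Bcl2 lay in exon 1 of 2 (chr1:106640302-106640343, minus strand) and that of Mcl1 in exon 1 of 3 (chr3:95566735-95566776, plus strand). For Bax it lay in exon 3 of 6 (chr7:45115418-45115459, minus strand), for Bcl2l11 in exon 3 of 4 (chr2:127989058-127989099, plus strand) and for Bid in exon 4 of 6 (chr6:120874247-120874288, minus strand). Pmaip1 was not searched. The pattern occurred once in each of the 9 members that were searched. It also occurred in 34.1% of 21593 coding transcripts taken 1 per gene, so by itself it does not mark the family.

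Seen across the libraries, the family was found unevenly. Of the 90 values (10 genes in 9 libraries), 50 were 0, 9 were between 1 and 9 counts and 31 were at 10 counts or more. Of those 31, TetHighProg held 1, TetLowReg 12 and TetLowProg 18, each out of 30. At 1 count or more, the mean number of members found was 6 in both low avidity groups.

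**Figure D1:**
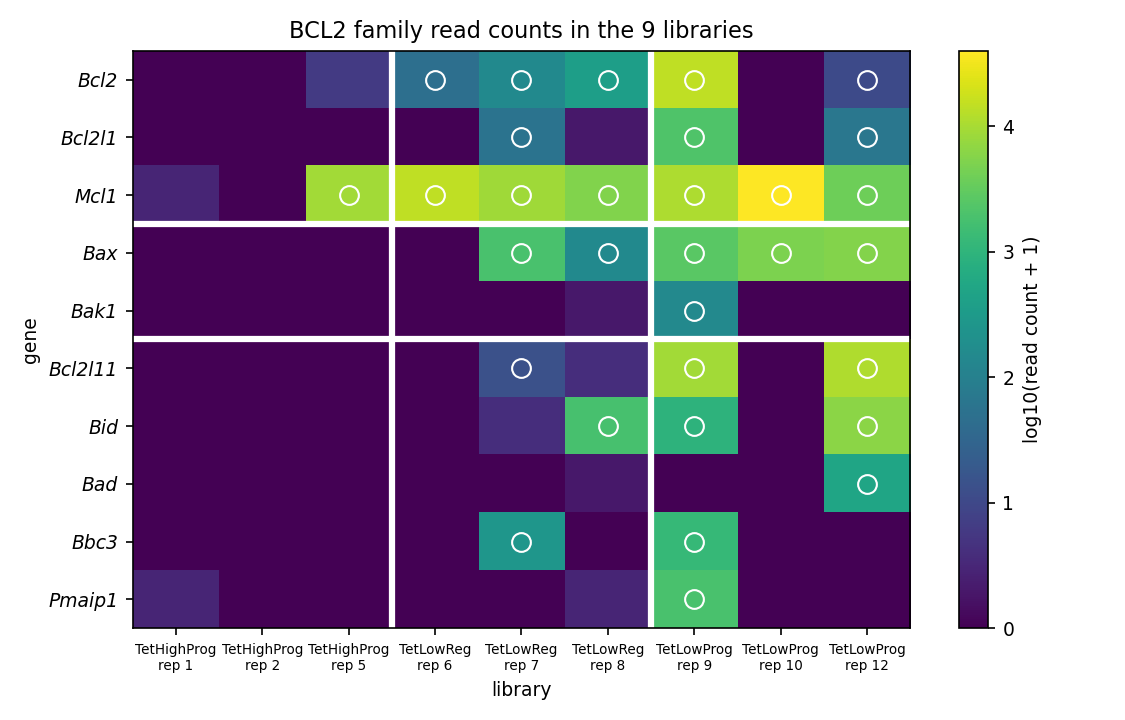
Read counts of the 10 genes (rows, in the order anti-apoptotic, effector, BH3-only) in the 9 libraries (columns), coloured by log10(count + 1), with a white circle where a gene had 10 counts or more. TetHighProg holds 1 circle, TetLowReg 12 and TetLowProg 18, and Mcl1 is the row with the most, 7.

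Values of a group are given from here on in the order of its replicate numbers. The TetHighProg libraries held 0, 0 and 1 of the members, the TetLowReg libraries 2, 6 and 4, and the TetLowProg libraries 9, 2 and 7. It moved with the number of all genes found. In TetLowProg replicate 9, the library with the most genes found, 90% of the members were found beside 60.4% of the 13373 genes found at least once in the series. In TetHighProg replicate 5, which was not among the sparse libraries, 10% of the members were found beside 23.8% of the genes. The shares were 60% and 59.9% in TetLowReg replicate 7, 40% and 54.1% in TetLowReg replicate 8, and 70% and 48.2% in TetLowProg replicate 12. In the sparse libraries they were 20% and 5.73% for TetLowReg replicate 6, 20% and 8.58% for TetLowProg replicate 10, and 0% beside 9.71% and 4.48% for replicates 1 and 2 of TetHighProg. Mcl1 and Bax were the members found in the sparse TetLowProg replicate 10, and Mcl1 and Bcl2 those found in the sparse TetLowReg replicate 6. With every library thinned to 16405306 gene counts, the numbers were 0, 0 and 1 in TetHighProg, 2, 5 and 4 in TetLowReg, and 9, 2 and 6 in TetLowProg.

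**Figure D2:**
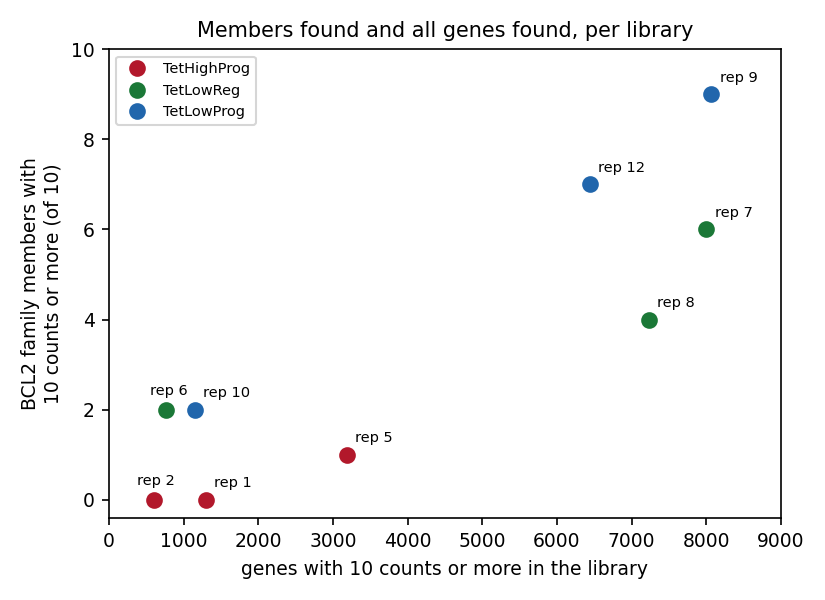
Members with 10 counts or more (vertical axis, of 10) against all genes with 10 counts or more (horizontal axis), with 1 point per library coloured by group. The 5 libraries with 0 to 2 members found lie at 3181 genes or fewer, and the 4 with 4 to 9 members lie at 6443 genes or more.

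Mcl1, which protects T cells by binding Bcl2l11, Bbc3 and Bak1 and is turned over rapidly, was the member found most widely, in 7 of 9 libraries. Of the 13373 genes found at least once, 5.30% were found in as many libraries or more. Its counts were 2, 0 and 9326 in TetHighProg, 14769, 8752 and 5330 in TetLowReg and 11043, 40010 and 3920 in TetLowProg. As levels these were 0.0599, 0 and 411 CPM, then 670, 240 and 325 CPM, then 304, 1591 and 124 CPM. All 6 low avidity libraries held Mcl1, both of the sparse ones included, and at the highest level in their group. In TetHighProg the gene was high in replicate 5, within the range of the low avidity libraries, and at or under 2 counts in the others, so the groups overlapped. With CPM divided by the TMM factors of edgeR, a scaling for the composition of each library, the lowest TetLowReg library (365) lay above the highest TetHighProg library (331; exact permutation test, p = 0.1), as did the libraries of 4.83% of the tested genes. Without the mitochondrially encoded genes the groups overlapped, at 378 CPM in TetLowReg replicate 8 and 424 CPM in TetHighProg replicate 5 (exact permutation test, p = 0.2). The limits that a count of 0 allows (3 counts) were 0.0898 to 0.132 CPM in the TetHighProg libraries.

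The mean level of Mcl1 was 137 ± 237 CPM (SD, n = 3) in TetHighProg, 412 ± 228 CPM in TetLowReg and 673 ± 800 CPM in TetLowProg. TetLowReg replicate 7 gave 44.5% of its gene counts to mitochondrially encoded genes, against 1.36% to 14.2% in the others, which lowers the CPM of every other gene in it. With those genes left out, the TetLowReg mean was 498 ± 161 CPM. Mcl1 was ranked by CPM per kilobase of exon among the genes of each library in which it was found. It stood at place 1071 in TetLowProg replicate 12 and between place 105 and place 402 in the other 6. Those places are not on 1 scale. Place 219 was in TetLowReg replicate 6, with 766 genes found, and place 402 in TetLowProg replicate 9, with 8071.

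Bcl2, the founding member of the family, keeps naive and memory T cells alive. Its counts were 0, 0 and 5 in TetHighProg, 47, 154 and 382 in TetLowReg and 14682, 0 and 10 in TetLowProg. In TetLowReg it was found in every library, at 2.13, 4.23 and 23.3 CPM, and the 3 libraries lay above all 3 of TetHighProg, where the highest was 0.220 CPM. In TetLowProg it spanned the whole range of the series, from 0 CPM in replicate 10 through 0.317 CPM in replicate 12 to 404 CPM in replicate 9. That 1 library held 99.9% of the group's Bcl2 counts. The group totals of counts over gene counts were 127-fold higher in TetLowReg than in TetHighProg, where the 5 counts of replicate 5 were the only ones, and the exact permutation test (two-sided, on log2(CPM + 1)) gave p = 0.1, the smallest that 3 against 3 libraries allow. Of the 5813 genes tested, 4.8% were likewise higher in every TetLowReg library than in every TetHighProg library. Within TetLowReg the levels of 4.23 and 23.3 CPM were in replicates 7 and 8, where the B cell list summed to 558 and 681 CPM, and the level of 2.13 CPM in replicate 6, where all 3 B cell markers had 0 counts. The B cell markers also had 0 counts in TetLowProg replicate 9. In TetLowReg replicates 6, 7 and 8 the macrophage and dendritic cell list summed to 0.227, 8425 and 1268 CPM. Bcl2 shares 558 exon bases with D630008O14Rik on the opposite strand, and reads there are left out of counts without strand.

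Bcl2l1, which encodes BCL-xL, the survival factor that activated T cells gain through costimulation, was found in 3 libraries. Its counts were 0 in every TetHighProg library, 0, 56 and 1 in TetLowReg and 2192, 0 and 65 in TetLowProg. Replicate 9 of TetLowProg, at 60.3 CPM, stood far above the others, of which the next were 2.06 CPM in TetLowProg replicate 12 and 1.54 CPM in TetLowReg replicate 7. The groups overlapped at 0 in each comparison, and the exact p was 0.4 in all 3.

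Bax, a cytosolic effector that inserts into the mitochondrial outer membrane, had 0 counts in TetHighProg and was found in all 3 TetLowProg libraries. Its counts were 0, 0 and 0 in TetHighProg, 0, 1882 and 154 in TetLowReg and 2694, 4895 and 5645 in TetLowProg. As levels these were 0 CPM in TetHighProg, 0, 51.7 and 9.39 CPM in TetLowReg and 74.1, 195 and 179 CPM in TetLowProg. In CPM every TetLowProg library, the sparse replicate 10 included, exceeded every library of the other groups. Against TetLowReg this depended on the scaling. With the mitochondrially encoded genes left out, TetLowReg replicate 7 stood at 93.1 CPM, above TetLowProg replicate 9 at 75.8 CPM, and with CPM divided by the TMM factors the values were 86.2 and 40.8, so the groups overlapped (exact permutation test, p = 0.2 in both). The libraries of TetLowProg stayed above those of TetHighProg under both scalings, and so did those of TetLowReg for Bcl2.

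The mean Bax level was 149 ± 65.6 CPM (SD, n = 3) in TetLowProg and 20.3 ± 27.5 CPM in TetLowReg, a 5.23-fold higher group total (exact permutation test, two-sided, p = 0.1). Without the mitochondrially encoded genes the means were 155 ± 68.4 CPM and 34.7 ± 50.9 CPM (exact p = 0.2). Against TetHighProg, where 0 counts over the group allow up to 3, the group total was at least 3863-fold higher (exact p = 0.1). Non-overlap in CPM in that direction was met by 2.77% of the tested genes for TetLowProg against TetLowReg and by 6.67% for TetLowProg against TetHighProg. TetLowReg against TetHighProg overlapped at 0, with a group total at least 738-fold higher and an exact p of 0.4. In TetLowProg replicates 9 and 10 the 3 B cell markers were at 0 and the macrophage and dendritic cell list summed to 16.2 and 0 CPM, while in replicate 12 both lists were present.

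Bak1, the effector that sits on the mitochondrion at rest, was found in 1 library. It had 146 counts (4.02 CPM) in TetLowProg replicate 9, 1 count in TetLowReg replicate 8 and 0 elsewhere. Bak1 shares 437 exon bases with Ggnbp1 on the opposite strand, and reads there are left out of its count. The groups overlapped at 0 in every comparison (exact p = 1).

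**Figure D3:**
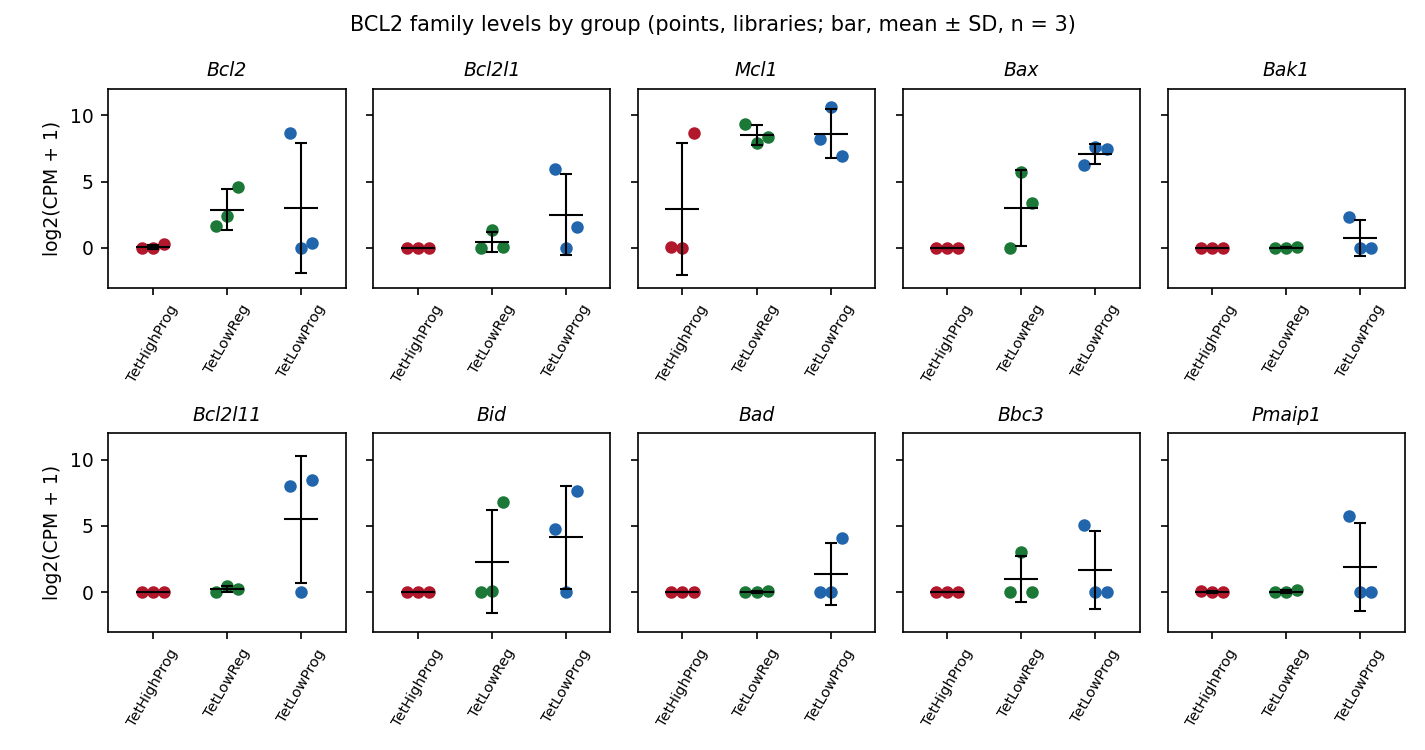
Level of each gene as log2(CPM + 1) on the vertical axis, with 1 point per library, grouped as TetHighProg, TetLowReg and TetLowProg; horizontal bars give the mean and whiskers the SD (n = 3). In these CPM all 3 TetLowProg points of Bax lie above all points of the other groups, which against TetLowReg is lost without mitochondrially encoded genes or with TMM factors, and in Bcl2 the 3 TetLowReg points lie above those of TetHighProg.

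Among the BH3-only members, Bcl2l11 had the highest counts. It encodes BIM, which binds all the anti-apoptotic members and sets the death of T cells after an immune response. Its counts were 0 in TetHighProg, 0, 13 and 3 in TetLowReg and 9182, 0 and 11353 in TetLowProg. Replicates 9 and 12 of TetLowProg, at 253 and 360 CPM, were far above TetLowReg, where the highest was 0.357 CPM, but the sparse replicate 10 held none, so the groups overlapped. The TetLowReg and TetLowProg totals differed 1034-fold (exact p = 0.4), and TetLowProg was at least 5994-fold above TetHighProg (exact p = 0.4). TetLowReg replicates 7 and 8 were not sparse: 8004 and 7234 genes were found in them. The limit that a count of 0 allows was 0.0824 CPM in replicate 7 and 0.183 CPM in replicate 8. Markers of B cells were at 0 in TetLowProg replicate 9 and at 1108 CPM in replicate 12.

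Bid, which is cut by caspase-8 and carries the death receptor signal to mitochondria, was found in 3 libraries of both low avidity groups. Its counts were 0 in TetHighProg, 0, 3 and 1809 in TetLowReg and 942, 0 and 6353 in TetLowProg. The levels in the libraries that held it were 110 CPM in TetLowReg replicate 8, 25.9 CPM in TetLowProg replicate 9 and 202 CPM in TetLowProg replicate 12. The low avidity groups overlapped, with a 3.24-fold higher total in TetLowProg (exact p = 0.7). Bid shares 3059 exon bases with Bcl2l13, another family member on the opposite strand, and Bcl2l13 had 12, 1348 and 3 counts in those 3 libraries.

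Bad, Bbc3 and Pmaip1 appeared in single libraries of a group. Bad, which growth factor signalling holds inactive by phosphorylation, had 498 counts (15.8 CPM) in TetLowProg replicate 12, 1 in TetLowReg replicate 8 and 0 elsewhere, and shares 914 exon bases with Gpr137 on the opposite strand. Bbc3 (PUMA), a target of p53, had 263 counts (7.22 CPM) in TetLowReg replicate 7, 1210 (33.3 CPM) in TetLowProg replicate 9 and 0 in the other 7. Pmaip1 (NOXA), which binds Mcl1, had 1911 counts (52.6 CPM) in TetLowProg replicate 9, 2 counts each in TetHighProg replicate 1 and TetLowReg replicate 8, and 0 elsewhere. TetLowProg replicate 9 was thus the library with both Bbc3 and Pmaip1, and replicate 12, with 6443 genes found, held neither. Each of these 3 genes overlapped at 0 in every comparison (exact p = 1).

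Per kilobase of exon, which sets genes of different length side by side only roughly, the composition of the family differed widely among libraries of 1 group. The length was that of all annotated exons of a gene merged: 1856 bases for Bax, 3491 for Mcl1, 9796 for Bid and 10112 for Bcl2l11. Of the Bid bases, 3059 are shared with Bcl2l13, and reads there are left out. Which transcripts were expressed was not tested, and a gene expressed from a shorter one is understated. Mcl1 made up nearly all of the summed CPM per kilobase in TetHighProg replicate 5, where no other member was found, and 99.9%, 69.5% and 83.1% of it in TetLowReg. In TetLowProg its share was 36.6%, 81.3% and 18.5%. Replicate 12 was the library in which Mcl1 was not the largest member: Bax held 50.2% of the sum there, Bcl2l11 18.5% and Bid 10.7%.

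By role, the anti-apoptotic members held 70.3% or more of the sum in the TetLowReg libraries and 59.9%, 81.3% and 18.8% in those of TetLowProg. The BH3-only members held 0%, 1.57% and 10.1% in TetLowReg and 22.6%, 0% and 31.1% in TetLowProg, so the ranges of the groups overlapped. Mcl1 exceeded Bax per kilobase by a ratio of 2.47 and 18.4 for replicates 7 and 8 of TetLowReg, and the ratio was 2.18, 4.35 and 0.369 in TetLowProg. The ratio of Bcl2 to Bcl2l11 was 13.0 in TetLowReg replicate 7, 1.76 in TetLowProg replicate 9 and 0.000967 in TetLowProg replicate 12. Replicates 9 and 12 of TetLowProg thus held Bcl2l11 at 25.0 and 35.6 CPM per kilobase, while their Bcl2 stood at 43.9 and 0.0345 CPM per kilobase.

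**Figure D4:**
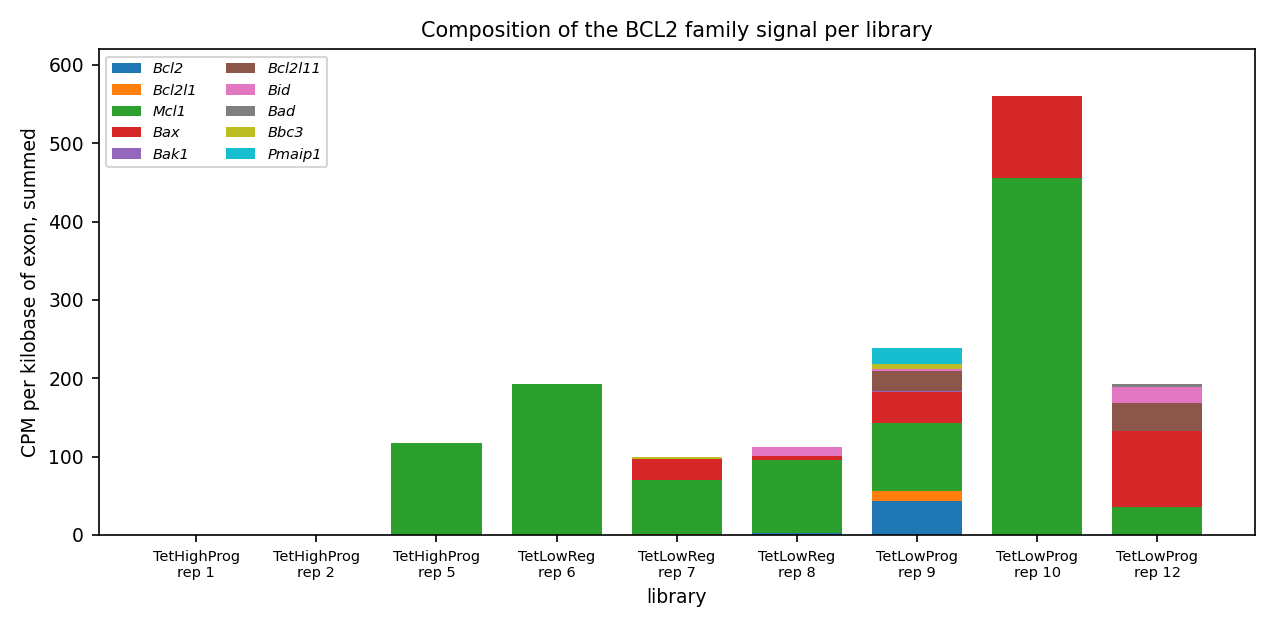
Summed CPM per kilobase of exon (vertical axis) of the 10 genes in each library, stacked and coloured by gene. Mcl1 (green) is the largest part of each bar of visible height except TetLowProg replicate 12, where Bax (red) is, and the bars of TetHighProg replicates 1 and 2 are at or near 0.

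The tests across all genes asked whether the members differed between the groups beyond the spread of the libraries. edgeR tested 5813 genes, among them Bcl2, Bcl2l1, Mcl1, Bax and Bid. The other 5 members did not pass its filter on low counts, and Bcl2l1, Bax and Bid, at 0 counts in TetHighProg, and Bcl2, at 5 counts or fewer there, passed only through the low avidity libraries. Their values against TetHighProg, the calls and the separation of libraries included, therefore had to be higher and are given as a description. To be called, a gene needed a log2 fold change above 2 in either direction and a p under 0.05 after Benjamini-Hochberg adjustment. The standard error (SE) printed for edgeR was the absolute log2 fold change divided by the square root of the F statistic of the same test. It therefore restates that test.

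In TetLowReg against TetHighProg, 0 of 5 members were called, beside 0.0% of all tested genes. The edgeR log2 fold change was 7.52 (SE 5.70) for Bcl2, 7.68 (SE 4.61) for Bcl2l1, 2.0 (SE 3.25) for Mcl1, 12.87 (SE 6.57) for Bax and 13.23 (SE 6.68) for Bid. Their adjusted p-values from edgeR were 0.389, 0.264, 0.792, 0.233 and 0.233. The unadjusted edgeR p was 0.0499 for Bax and 0.0475 for Bid, and it was under 0.05 for 19.0% of the tested genes, higher in TetLowReg. The members' median log2 fold change was 7.68, and that of all tested genes was 4.82, so most of the table lay in the same direction. In this comparison Mcl1 was below the median of all genes and the other 4 were above it. With DESeq2 at its default size factors, Bax and Bid were called (log2 fold change 11.89 and 24.63, adjusted p = 0.00120 and 4.35e-09) of 3 members with an adjusted p, beside 38.3% of all genes. DESeq2 with poscounts size factors called the same pair of 4 members (28.7% of genes), and limma-voom called Bcl2, Mcl1, Bax and Bid of 5 (41.5% of genes). DESeq2 on the 2 groups alone called 0 of 2 members, beside 3.5% of genes. Fitted fold changes against a group at 0 depend on the prior count and are not bounds.

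In TetLowProg against TetHighProg, again 0 of 5 members were called by edgeR, beside 0.0% of tested genes. The log2 fold change was 10.32 (SE 6.39) for Bcl2, 11.54 (SE 5.56) for Bcl2l1, 2.44 (SE 3.30) for Mcl1, 14.90 (SE 7.04) for Bax and 13.94 (SE 6.85) for Bid, with edgeR adjusted p-values of 0.251, 0.193, 0.722, 0.193 and 0.193. Bcl2l1, Bax and Bid had an unadjusted p of 0.0380, 0.0344 and 0.0417, beside 24.8% of genes that passed 0.05 in that direction. The median was 11.54 for the members and 5.40 for all tested genes. Bax was called by DESeq2 on the 2 groups alone (log2 fold change 14.37, SE 3.01, adjusted p = 7.74e-05), beside 7.31% of the genes so tested, and by DESeq2 with default size factors (adjusted p = 4.52e-05), which also called Bid and called 46.4% of genes. DESeq2 with poscounts called Bcl2, Bax and Bid of 4 members (29.4% of genes), and limma-voom all tested members but Bcl2 (49.9% of genes). Both comparisons share the TetHighProg libraries, so their values are not independent. TetHighProg replicate 5 was the only library of its group in which Mcl1 was found. Leaving it out took the log2 fold change of Mcl1 from 2.0 to 13.60 for TetLowReg and from 2.44 to 13.99 for TetLowProg. It took that of Bcl2, whose only TetHighProg counts were in this library, from 7.52 to 11.44 and from 10.32 to 14.03. Without TetLowProg replicate 10 that of Mcl1 was 0.35 in TetLowProg in place of 2.44. Without TetLowProg replicate 9 that of Bcl2 was 1.31 in place of 10.32. Bcl2l1 in TetLowReg was 3.02 without replicate 7, and Bid in TetLowReg was 4.15 without replicate 8.

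Between the low avidity groups, TetLowProg against TetLowReg, 0 of 5 members were called by edgeR, beside 0.0% of genes, and 0 of 5 passed an unadjusted 0.05, which 0.43% of genes did in the higher direction. The log2 fold change was 2.81 (SE 4.61) for Bcl2, 3.86 (SE 4.28) for Bcl2l1, 0.44 (SE 3.14) for Mcl1, 2.02 (SE 4.46) for Bax and 0.71 (SE 4.34) for Bid. The members' median was 2.02 and that of all tested genes 0.35. These SE, which restate the F tests, exceed every one of these values. Neither a difference nor a likeness of the groups can therefore be read from the values. DESeq2 called 0 of 3 members with default size factors (0.605% of genes), 0 of 4 with poscounts (0.462%) and 0 of 4 on the 2 groups alone (0.0689%), and limma-voom called 0 of 5 (0.0%). Leaving out 1 library moved the log2 fold change of Bcl2l1 from 0.16 (without TetLowProg replicate 9) to 8.94 (without TetLowReg replicate 7) and that of Bax from 1.47 (without TetLowReg replicate 6) to 4.85 (without TetLowReg replicate 7). Without the 4 sparse libraries, the log2 fold change of Bax was 1.19 (SE 2.65).

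Bcl2l11 did not pass the filter of the 3-group test, but it entered several alternative fits. In the fit without a filter, over 17615 genes, its log2 fold change was 15.06 (SE 6.64) for TetLowProg against TetHighProg and 9.30 (SE 5.73) for TetLowProg against TetLowReg, with edgeR adjusted p-values of 0.445 and 0.463. On the 2 low avidity groups alone it was 9.23 (SE 5.56) with edgeR and 9.66 (SE 3.05) with DESeq2, with adjusted p-values close to 1 and of 0.445. Without the 4 sparse libraries it was 9.29 (SE 3.25) between the low avidity groups, with an edgeR adjusted p of 0.701.

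**Figure D5:**
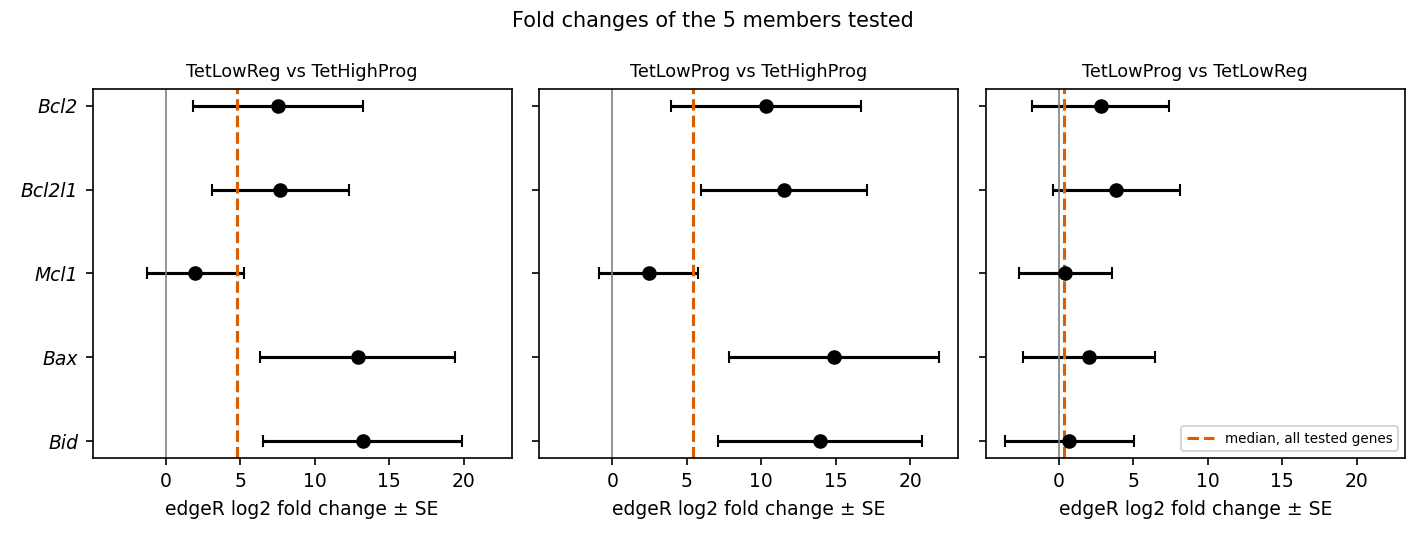
edgeR log2 fold changes (horizontal axis) with standard errors, derived from the F statistic, for the 5 members tested (vertical axis) in the 3 comparisons. A grey line is at 0 and a dashed line at the median of all 5813 tested genes (4.82, 5.40 and 0.35). Every point lies above 0, and in the third panel each error bar reaches past it.

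Around the family stand the genes that control it and carry out its signal, here 56 apoptosis genes, of which 54 were matched and 40 tested. None was called by edgeR in any comparison. Listed genes at 0 in TetHighProg passed the filter only through the low avidity libraries and had to be higher there, so the counts and values against TetHighProg are a description. In TetLowReg against TetHighProg 7 of 40 had an unadjusted p under 0.05, all higher in TetLowReg, with a median log2 fold change of 5.67, against 19.0% and 4.82 over all genes. In TetLowProg against TetHighProg 13 of 40 did, all higher in TetLowProg, with a median of 5.38, against 24.8% and 5.40 over all genes. Between the low avidity groups 0 of 40 did, with a median of 0.73, against 0.43% (higher) and 0.35.

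The 5 with the smallest p in TetLowReg against TetHighProg were Birc2, Fasl, Ripk1, Aifm1 and Akt1, each with an edgeR adjusted p of 0.233 and 0 counts in every TetHighProg library. Birc2 encodes cIAP1, a ubiquitin ligase of the TNF receptor complex, and had 0, 3293 and 4377 counts in TetLowReg. Fasl, the ligand with which T cells trigger Fas on their targets, had 0, 2421 and 1842 counts there. For Ripk1, a kinase of the TNF receptor complex, the counts were 0, 1987 and 60, for Aifm1, a mitochondrial flavoprotein, 0, 0 and 1996, and for Akt1, the kinase that phosphorylates Bad, 0, 2615 and 0. The sparse TetLowReg replicate 6 thus held none of the 5, and Aifm1 and Akt1 each rested on 1 library.

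In TetLowProg against TetHighProg the 5 were Htra2, Birc3, Pik3cd, Casp2 and Xiap, each with an edgeR adjusted p of 0.193 and again 0 counts in TetHighProg. Htra2, a mitochondrial protease that antagonises caspase inhibitors on release, had 838, 0 and 1217 counts in TetLowProg. Birc3 (cIAP2) had 5201, 0 and 7895 counts, Pik3cd, the PI3K catalytic subunit of lymphocytes, 14084, 0 and 2601, Casp2, an initiator caspase, 3255, 0 and 585, and Xiap, an inhibitor of caspases, 3090, 0 and 83. All 5 were found in replicates 9 and 12 and were at 0 in the sparse replicate 10. Between the low avidity groups the smallest p-values belonged to Casp2, Htra2, Tradd, Foxo3 and Pik3cd, with adjusted p-values close to 1. Foxo3, a transcription factor that drives Bcl2l11 and Bbc3, had a log2 fold change of -2.76 (SE 3.58), and its counts were 38980, 1932 and 3132 in TetLowReg and 3690, 22 and 6592 in TetLowProg. The others were positive, at 5.87 for Casp2, 5.43 for Htra2, 5.28 for Tradd, the adaptor of TNF receptor 1, and 3.02 for Pik3cd.

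A trio of listed genes did not overlap between groups (exact p = 0.1 each). Fbxw7, a ubiquitin ligase component that marks MCL1 for destruction, had 0.150, 0 and 0.661 CPM in TetHighProg and 0.862, 3.87 and 66.6 CPM in TetLowReg, so the lowest TetLowReg library lay just above the highest TetHighProg library, as was so for 4.8% of all tested genes. Birc6, a giant inhibitor of apoptosis, was lower in every TetLowReg library, at 1217, 199 and 1148 CPM against 4683, 5772 and 3283 CPM in TetHighProg. Of all tested genes 0.998% were so lower. Birc6 was found in every library, and in CPM its highest levels were in the sparse ones and TetHighProg replicate 5. That order depended on the scaling. TetLowReg replicate 8, not sparse, lay above the sparse replicate 6 without mitochondrially encoded genes (1337 and 1238 CPM) and with TMM factors (1290 and 1010). Bnip3l, a mitophagy receptor related to the family, had 0 counts in TetHighProg and 6187, 1 and 3317 in TetLowProg, where the single count of replicate 10 decides the separation, which 6.67% of all tested genes shared. All 3 separations held without mitochondrially encoded genes and with TMM factors.

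Other relatives and Il2rg are named here after their values were seen. Bcl2l2, Bcl2l10, Bmf, Bik and Bcl2l14 had 0 counts in all 9 libraries. Bnip3, a mitophagy receptor, had 4213 counts in TetHighProg replicate 5, 379 in TetLowReg replicate 7, 841 in TetLowProg replicate 9 and 0 elsewhere. Bcl2a1b, an anti-apoptotic gene of activated lymphocytes and myeloid cells with near-identical copies that can split its reads, had 530 counts in TetHighProg replicate 5, 467 and 219 for replicates 7 and 8 of TetLowReg and 808 and 143 for replicates 9 and 12 of TetLowProg. It was thus found in the 5 libraries that were not sparse, and at 0 in the 4 that were. Il2rg, the receptor chain shared by IL-2, IL-7 and IL-15, was found in all 9 libraries, with 21629 to 251482 counts.

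Among all tested genes, those whose log2(CPM + 1) over the 9 libraries was most like a member's were Mbd3 and Id2 for Bcl2 (Pearson r = 0.984 for both), B4galt5 and Serpinb6a for Bcl2l1 (0.9999 and 0.9995), Tapbp and Sbno1 for Mcl1 (0.974 and 0.972), Cdc42se2 and Stat3 for Bax (0.992 and 0.981), and Tmem138 and Taf4 for Bid (0.9996 and 0.9992). The 9 points share their library's depth and the number of genes found, and the genes were picked as the highest of 5813, so the values are descriptions. Tapbp (tapasin) had 0 counts in TetHighProg replicates 1 and 2 and 2021 to 20099 in the other 7 libraries, the set in which Mcl1 was found. Stat3 and Cdc42se2 were, like Bax, found in TetLowReg replicates 7 and 8 and all 3 TetLowProg libraries. Among the members themselves Bcl2 and Bcl2l1 were the most alike (r = 0.82), and the other 9 pairs of the 5 tested members ranged from 0.187 to 0.506.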

How the data were processed

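RNA of tetramer-sorted T cells was amplified with Smart-seq2, without molecular identifiers, so limits and intervals cover counting error only. The authors aligned paired reads to GRCm39 (STAR 2.7.6a) and deposited, for each library, a table of read counts without normalization. Reads were assigned with featureCounts according to the methods, though the tables look like STAR's own output. The annotation release is not given in the sources used here. Strand shares of 50.2% to 50.8% led to the unstranded counts being used. Reads on overlapping genes are not assigned in such counts. Of 32976 genes, 28645 matched GENCODE M39 (GRCm39), which gave symbols, positions and merged exon lengths. The 4 summary lines per table were left out.

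The members and the gene lists were chosen with earlier results of these data known. Some listed genes are not reported here and were left out of the lists. Named were all 10 members, the called listed genes or, with none called, the 5 of smallest p per comparison, those whose libraries did not overlap, and the 2 most alike genes per tested member. Other relatives and Il2rg were named after their values were seen. CPM used gene counts as total and a pseudocount of 1 on the log2 scale. Main tests were edgeR 4.0.16 (quasi-likelihood, TMM factors 0.600 to 1.82, default filter, prior count 0.125, 3 groups in 1 model) in R 4.3.3. Bounds against 0 used 3 counts over the group. Alternatives were other filters and scalings, DESeq2 1.42.0, limma-voom (limma 3.58.1), fits on 2 groups, mitochondrial genes left out and each library left out. Leaving out the 4 libraries with under 2000 genes, and comparing library levels without mitochondrial genes or divided by TMM factors, were chosen after seeing the data. Python 3.11.15 with SciPy 1.17.1 gave exact permutation tests.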

Additional observations from a re-analysis of the deposited data

How the results depend on the processing

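With edgeR the number of members called was 0 in every comparison under every alternative fit. No paired analysis was possible because the groups share no replicate numbers. In TetLowReg against TetHighProg, DESeq2 with default size factors called 1710 genes (38.3%), 2 of 3 members and 10 of 34 listed apoptosis genes. DESeq2 with poscounts size factors called 1036 (28.7%), 2 of 4 and 7 of 31. For limma-voom with quality weights these were 2411 (41.5%), 4 of 5 and 19 of 40. On the 2 groups alone edgeR called 2 genes and DESeq2 65, and without the 4 sparse libraries edgeR called 3. In TetLowProg against TetHighProg DESeq2 with default size factors gave 2068 genes (46.4%), 2 of 3 members and 16 of 34 listed genes. With poscounts these were 1087 (29.4%), 3 of 4 and 10 of 32. With limma-voom they were 2901 (49.9%), 4 of 5 and 27 of 40, 1 of the 27 lower. Here edgeR called 1 gene with library size in place of TMM, 1 on the 2 groups alone and 3 without the sparse libraries, and DESeq2 on the 2 groups alone called 162 genes and 1 member, Bax. In TetLowProg against TetLowReg, DESeq2 called 27 genes by default, 18 with poscounts and 3 on the 2 groups alone, and edgeR called 1 on the 2 groups alone. Leaving out 1 library gave 0 to 2 genes there, with 2 without TetLowProg replicate 12.

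Directions of single members changed as follows. Mcl1 was -1.16 in TetLowProg against TetHighProg without the 4 sparse libraries, a fit in which TetHighProg is 1 library assumed to vary like the other groups. In TetLowProg against TetLowReg, Bcl2 was -2.85 and Mcl1 -1.31 with limma-voom, and Mcl1 was -1.32 without the sparse libraries. Leaving out 1 library moved that comparison between -6.10 (without TetLowProg replicate 9) and 4.60 for Bcl2, between -1.76 (without TetLowProg replicate 10) and 1.01 for Mcl1, and between -1.84 (without TetLowProg replicate 12) and 9.92 for Bid. The cause was not tested. Of the members' other alternative values, 186 kept direction and side of the threshold, 18 passed it with the same direction, and 11 kept direction but had no adjusted p. Library size in place of TMM moved the median of all genes from 4.82 to 4.23, from 5.40 to 5.74 and from 0.35 to 1.23.

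The mean number of members found in TetHighProg was 1.33 at 1 count or more, and it was 6 both in TetLowReg and in TetLowProg, so the low avidity means, 4 and 6 with 10 counts or more, were equal there. At 10 counts or more and without the 4 sparse libraries the means were 1 for TetHighProg, 5 for TetLowReg and 8 for TetLowProg. A count of 0 allows a level of 0.0824 to 0.183 CPM. The scalings under which the libraries of Bax, Bcl2 and Mcl1 were compared were added after seeing the data.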
